A study of Homo sapiens with 9 samples.

Results

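The genes described here are 10 subunits, enzymes and partners of the Polycomb and histone H3 lysine 9 (H3K9) silencing machinery: EZH1, EZH2, SUZ12 and EED of Polycomb repressive complex 2 (PRC2), BMI1 and CBX7 of Polycomb repressive complex 1 (PRC1), and SETDB1, TRIM28, SUV39H1 and EHMT2 of the H3K9 pathway. These genes were chosen by name and not by a rule on measured values, although earlier results of these data were known. The 10 genes are among the 23284 gene symbols listed in each library, and all of them were above 0 in all 9 libraries. RNA-Seq was performed on HT-29, an established human colorectal adenocarcinoma line grown as an adherent epithelial culture. The cells were kept for 5 days with 5-Aza-deoxycytidine (5-Aza), an inhibitor of DNA methyltransferases, at 5 µM or 10 µM, or with the dimethyl sulfoxide vehicle alone (0 µM). Each group holds 3 libraries that the labels describe as biological replicates. All groups come from the same line and were collected at a single time, so the comparisons cover dose in HT-29 and neither other cells nor the course of the response.

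PRC2 methylates histone H3 on lysine 27 through EZH2 or EZH1, with SUZ12 and EED as subunits that the catalytic subunit needs for activity. PRC1 ubiquitinates histone H2A, and in its canonical form a CBX protein binds the PRC2 mark while BMI1 (PCGF4) supports the RING1 or RNF2 ligase. H3K9 is methylated by other enzymes, among them SETDB1, which TRIM28 (KAP1) brings to zinc finger proteins at repeats, SUV39H1 at constitutive heterochromatin, and EHMT2 (G9a), which acts with EHMT1 in euchromatin. DNA methylation, the target of the drug, is a separate mark that often lies at H3K9-methylated sites and tends to avoid the CpG-rich promoters that Polycomb occupies.

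The start sites of these genes were first compared for the density of CpG, the dinucleotide that DNA methyltransferases modify. RefSeq windows of 300 bases, from 250 bases before to 50 bases after a start site, were available for 9 of the 10 genes (all but TRIM28), 13 windows in all. Their sequences come from a table on GRCh38.p14, and the positions printed are those of exact matches to GRCh37. The 13 windows had a median of 36.0 CpG, against 14.0 over the 35116 windows of all genes in the table, and a median GC content of 72.0% against 58.7%. That table is not limited to genes expressed in HT-29, and expressed genes were not compared separately. Genes with several start sites count more than once, and the windows of SETDB1 overlap. The 13 windows describe the genome sequence only, since methylation was not measured in these libraries. Windows of 3 genes are shown because EZH2 was the gene that rose with 5-Aza, BMI1 the gene that fell furthest, and SETDB1 a gene that fell and has a window close to the median of all genes. Each sequence reads 5′ to 3′ on the strand of the gene, holds the promoter and the first 50 bases of the transcript, and has every CpG in capitals.
EZH2, chr7:148581334-148581633, minus strand: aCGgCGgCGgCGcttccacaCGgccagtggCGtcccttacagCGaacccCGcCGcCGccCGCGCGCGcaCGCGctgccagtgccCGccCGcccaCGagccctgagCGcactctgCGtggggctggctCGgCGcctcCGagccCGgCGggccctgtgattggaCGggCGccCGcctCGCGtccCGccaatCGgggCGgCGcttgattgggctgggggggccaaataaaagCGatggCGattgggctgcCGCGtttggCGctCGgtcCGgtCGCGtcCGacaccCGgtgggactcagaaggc
BMI1, chr10:22609778-22610077, plus strand: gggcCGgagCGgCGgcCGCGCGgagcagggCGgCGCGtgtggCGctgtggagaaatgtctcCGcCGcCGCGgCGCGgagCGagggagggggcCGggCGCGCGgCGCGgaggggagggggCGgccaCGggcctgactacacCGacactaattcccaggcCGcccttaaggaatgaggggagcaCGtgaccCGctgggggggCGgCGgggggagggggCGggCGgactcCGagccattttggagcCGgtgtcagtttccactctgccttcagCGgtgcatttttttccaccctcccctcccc
SETDB1, chr1:150898489-150898788, plus strand: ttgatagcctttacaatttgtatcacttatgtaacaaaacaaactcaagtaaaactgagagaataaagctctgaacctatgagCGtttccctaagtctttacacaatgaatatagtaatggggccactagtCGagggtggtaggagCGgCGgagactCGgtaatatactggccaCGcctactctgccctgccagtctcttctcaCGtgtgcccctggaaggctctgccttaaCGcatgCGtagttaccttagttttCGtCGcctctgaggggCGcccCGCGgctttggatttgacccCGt

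The EZH2 window holds 46 CpG and exceeds 97.1% of all windows, the BMI1 window holds 36 and exceeds 87.3%, and the SETDB1 window holds 15 and exceeds 51.1%. Another SETDB1 start site had 22 CpG and a second EZH2 start site 45. The other start site of BMI1 (chr10:22610635-22610934) had 65 CpG, more than 100.0% of all windows after rounding. Of the genes that did not pass any test, CBX7 had 50 CpG, SUZ12 40, EZH1 30 and EED 16, and the windows of SUV39H1 held 7 and 42. EHMT2 had 25. The gene that rose and the gene that fell furthest thus both started in CpG-dense sequence, as did genes with no detected difference. A loose form of the E2F binding motif, TTTNNCGC read on both strands, lay in 4 of the 13 windows against 6.9% of all windows. The motif itself holds a CpG, and the 13 windows were denser in CpG than all windows (medians of 36.0 and 14.0). Windows of like CpG density were not compared, so these shares cannot separate the motif from CpG density. One of these matches, TTTGGCGC, began 1 base past the EZH2 start site shown above, and the others lay in windows of SUZ12, EZH1 and SETDB1. A match describes letters and not a bound site.

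**Figure D1:**
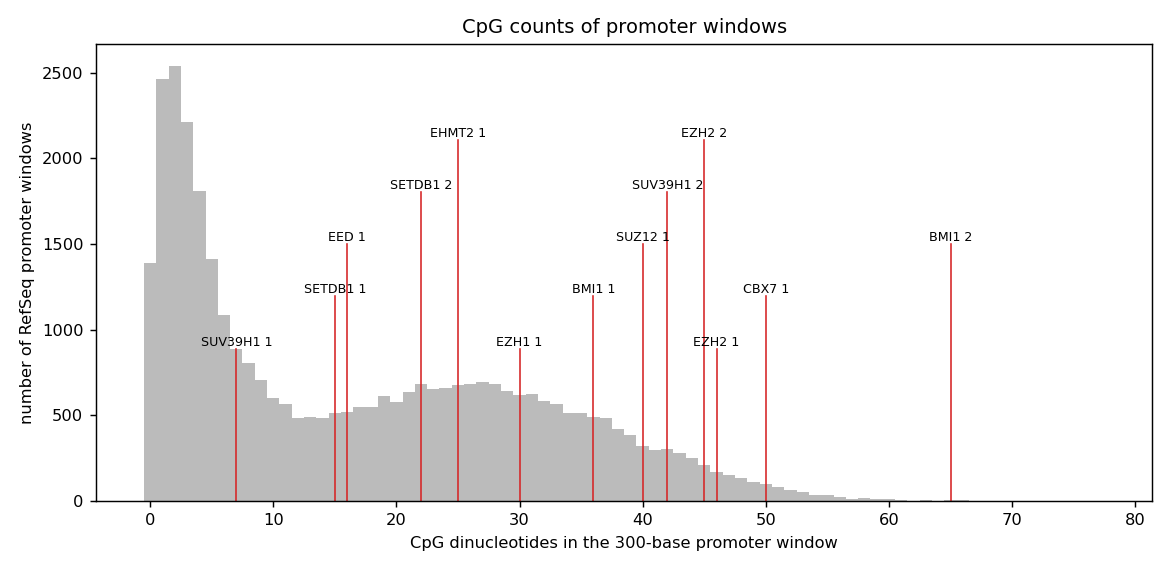
Number of CpG in 300-base windows around start sites: the histogram shows all 35116 RefSeq windows (y axis, number of windows) and the vertical lines the 13 windows of 9 of the 10 genes, with the window number after each symbol. The member windows run from 7 CpG (SUV39H1) to 65 (BMI1), and all but the first SUV39H1 window lie to the right of the median of all windows, 14.0.

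Values were deposited as FPKM, fragments per kilobase of transcript scaled by a library term, and were used as relative units because the values of a library summed to between 3.69e+09 and 5.91e+09. About 11900000 to 32500000 fragments per library were estimated from the smallest steps of the values. SUV39H1 rested on the fewest, with 58 to 178 estimated fragments per library, followed by CBX7 with 236 to 720, and TRIM28 on the most, with 6966 to 17736. Over genes above 0 in all libraries compared, the median log2 difference was -0.04 for 5 µM minus 0 µM, -0.24 for 10 µM minus 5 µM and -0.23 for 10 µM minus 0 µM, and 2 of the 10 µM libraries, replicates 1 and 3, stood apart from replicate 2 (log2 scale factors of -0.26 and -0.22 against 0.08). Differences of named genes that involve 10 µM are therefore given as deposited, with the value after median-of-ratios scaling, named scaled below, beside them. All 10 colon epithelial markers were above 0 in every group, and their summed level went from 82854663 to 99292368 FPKM at 0 µM to 35216442 to 39881222 at 5 µM and 27544530 to 48303702 at 10 µM, with 6 of 10 falling at 5 µM (KRT8 by a log2 difference of -1.65) and 2 rising (CDX1, CEACAM5). Markers of blood, endothelium, fibroblasts and liver, 7 genes together, summed to 7498 to 12239, 42157 to 55381 and 21969 to 27795 FPKM in the same order, with ALB and HBB at 0 in the control. The part of these shifts in the results below was not tested, and in bulk RNA fewer cells of a type and less RNA per cell cannot be told apart.

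In untreated HT-29 cells the corepressor TRIM28 stood far above the other 9 genes, with 2206373 ± 155528 FPKM (SD, n = 3). FPKM is divided by transcript length, so levels of different genes can be set in order within a group. TRIM28 was followed by SUZ12 with 404784 ± 23806, BMI1 with 327388 ± 5447 and EHMT2 with 175725 ± 835 FPKM. SETDB1 and EZH2 came next with overlapping libraries, then EED and EZH1, again overlapping, then CBX7 with 50626 ± 3580 and SUV39H1 with 24083 ± 5416 FPKM. TRIM28 ranked at the 97.3 to 98.3 percentile of symbols above 0 over all 9 libraries and SUV39H1 at the 29.8 to 38.4 percentile, so the highest and the lowest of the 10 genes both belonged to the H3K9 group. At 5 µM, EZH2 moved from rank 6 to rank 3 among the 10 genes, with libraries overlapping those of SUZ12, and BMI1 from rank 3 to rank 4. At 10 µM, EZH2 kept rank 3 and BMI1 took rank 6, its libraries overlapping those of its neighbours SETDB1 and EZH1, and EZH1 overlapping EED.

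**Figure D2:**
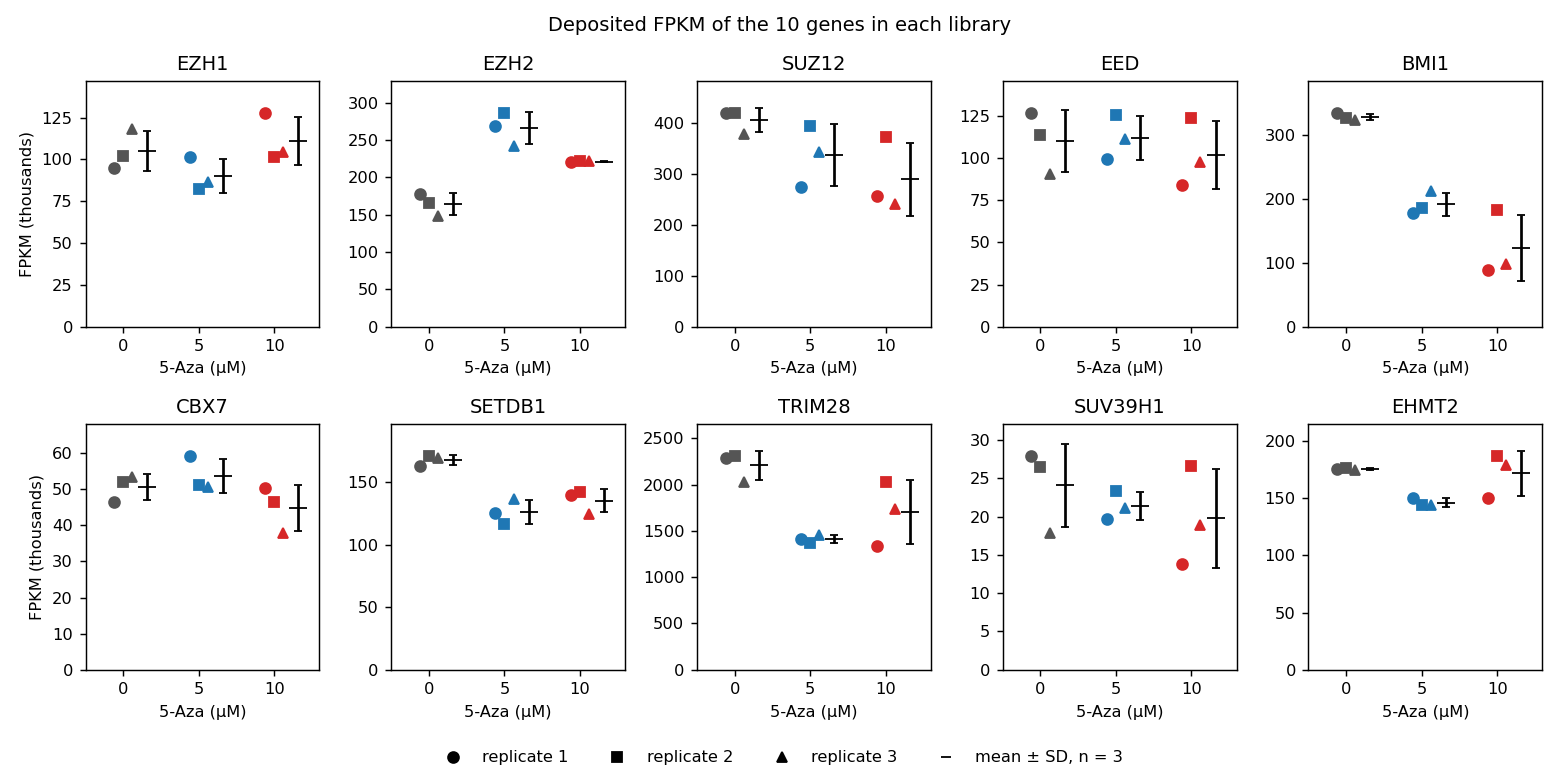
FPKM of the 10 genes (one panel each, y axis from 0, FPKM divided by 1000) at 0, 5 and 10 µM 5-Aza (x axis), where each point is 1 library and the bar with whiskers the mean ± SD of 3 libraries. EZH2 lies between 148682 and 177556 FPKM at 0 µM and between 242590 and 286168 at 5 µM, BMI1 descends from 0 to 10 µM, and SUV39H1 overlaps between all groups.

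The comparison of 5 µM with 0 µM asks which of the silencing genes changed RNA level when DNA methyltransferases were inhibited. EZH2 rose, BMI1, TRIM28, SETDB1 and EHMT2 fell, and EZH1, SUZ12, EED, CBX7 and SUV39H1 did not pass the test (limma, Benjamini-Hochberg adjusted p of at most 0.05 over 20051 genes). That 1 of 10 rose stands beside 21.3% of all genes tested, and that 4 of 10 fell beside 17.7%. The same 5 genes were those whose groups did not overlap, 1 higher and 4 lower, where 52.7% of all genes did not overlap in either direction. None of the 10 exceeded a 2-fold difference, which together with the adjusted p was met by 16.2% of all genes. The median log2 difference of the 10 genes was -0.24, against 0.14 over all genes tested and -0.04 over the 15418 genes that, like these 10, were above 0 in all 6 libraries. After median-of-ratios scaling 1 rose and 4 fell as before, beside 23.0% and 18.0% of all genes tested. The median was then -0.20, against 0.18 over all genes tested and 0 over the 15418 genes above 0 in all 6 libraries. With libraries set to the same sum of FPKM 1 rose and 2 fell, and the share of all genes was not counted on that scale.

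**Figure D3:**
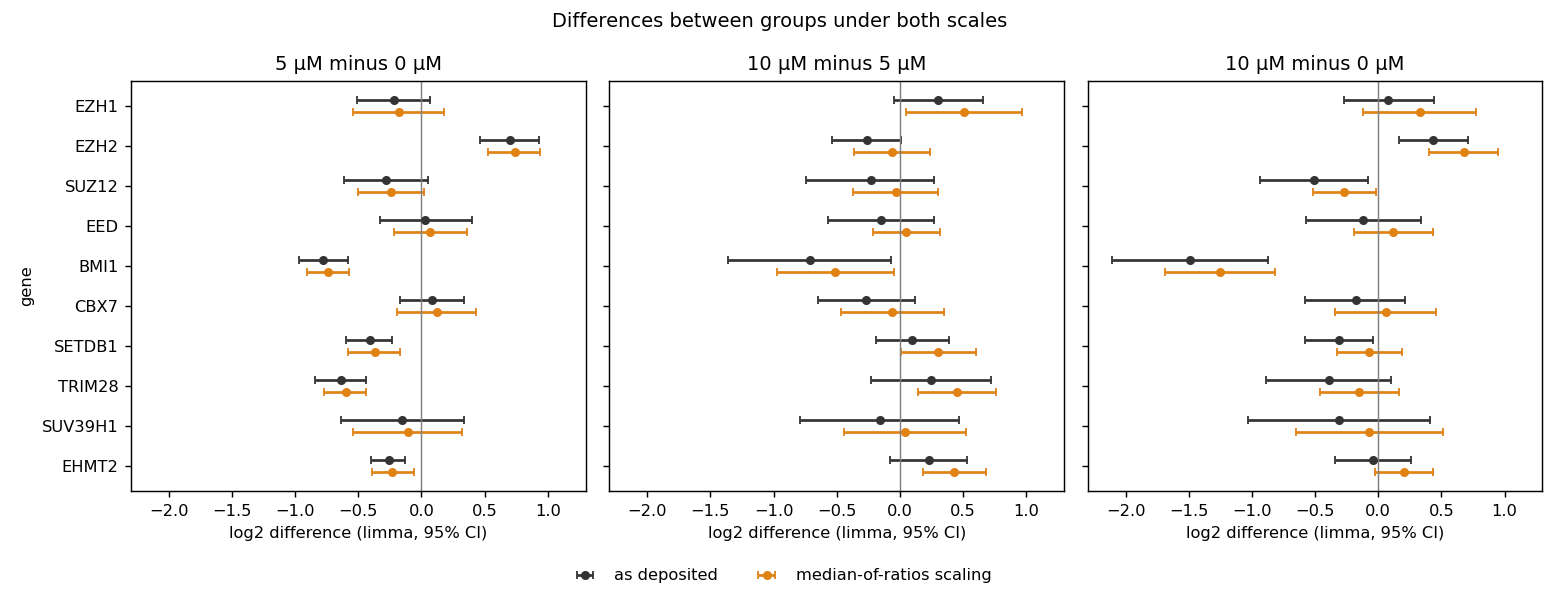
Log2 differences of the 10 genes in the 3 comparisons (one panel each), as deposited and after median-of-ratios scaling, with whiskers giving the 95% confidence interval of limma. EZH2 lies above 0 and BMI1 below 0 in both comparisons with the control on both scales, and the scaled values lie above the deposited ones most clearly where 10 µM enters.

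Among the PRC2 genes, the catalytic subunit EZH2 changed and the remaining 3 did not pass. EZH2 (chr7:148504349-148581413, minus strand, GRCh37) had 177556, 166124 and 148682 FPKM in replicates 1 to 3 at 0 µM, 269427, 286168 and 242590 at 5 µM, and 220618, 221373 and 221643 at 10 µM. Every treated library lay above every control library, also after scaling. The 10 µM libraries all lay below the lowest 5 µM library as deposited, and the 2 doses overlapped after scaling. EZH2 was 1.62-fold of the control mean at 5 µM, a log2 difference of 0.70 (SE 0.10, 95% interval 0.46 to 0.93, limma adjusted p = 0.0023), and 0.74 after scaling (limma adjusted p = 0.00114). In rank among all symbols above 0, it went from the 66.4 to 67.9 percentile at 0 µM to the 80.2 to 83.2 percentile at 5 µM.

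EZH1 (chr17:40852293-40897067), the paralog that can replace EZH2 as the catalytic subunit and is commonly the main form in resting cells, had 94752, 101760 and 118062 FPKM at 0 µM, 101227, 82151 and 86537 at 5 µM and 127728, 101463 and 104495 at 10 µM. Libraries at 0 and 5 µM overlapped (log2 difference -0.22, SE 0.12, limma adjusted p = 0.186). SUZ12 (chr17:30264026-30328057), which holds the PRC2 core together, had 418210, 418845 and 377298 FPKM at 0 µM, 274098, 394190 and 342380 at 5 µM and 255701, 371340 and 239574 at 10 µM. Its highest 5 µM library lay within the control range and the others below it (-0.28, SE 0.14, limma adjusted p = 0.151). SUZ12P, a pseudogene listed as its own entry, had 68294 to 93732 FPKM at 0 µM, 72704 to 111834 at 5 µM and 63888 to 96234 at 10 µM. The sum of both entries as deposited differed by -0.19 at 5 µM (SE 0.13, limma adjusted p = 0.296) and by -0.40 at 10 µM against 0 µM (SE 0.15, limma adjusted p = 0.103). The ratios below use the SUZ12 entry alone. EED (chr11:85912254-85989855), the subunit that reads the methylated H3 lysine 27, had 90378 to 126868 FPKM at 0 µM and 99525 to 125439 at 5 µM, the second range lying inside the first (0.03, SE 0.15, limma adjusted p = 0.878).

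Within each library, a ratio of 2 genes does not depend on the scaling of that library. EZH2 was 1.87, 1.63 and 1.26 times EZH1 at 0 µM, 2.66, 3.48 and 2.8 times at 5 µM and 1.73, 2.18 and 2.12 times at 10 µM. The 5 µM libraries lay above both other groups, whereas the 10 µM and control libraries overlapped (difference of log2 ratios 0.35, exact permutation p = 0.2). EZH2 was 0.425, 0.397 and 0.394 times SUZ12 at 0 µM, 0.983, 0.726 and 0.709 times at 5 µM and 0.863, 0.596 and 0.925 times at 10 µM. Every treated library exceeded every control library, by 0.98 on the log2 scale at 5 µM and 0.95 at 10 µM on average, and the 2 doses overlapped (exact permutation p = 0.9). The log2 ratio of EZH2 to EED also lay higher at both doses, by 0.67 at 5 µM and 0.55 at 10 µM. With 3 against 3 libraries the smallest exact 2-sided p is 0.1, which is what each ratio without overlap gave (0.233 after Benjamini-Hochberg adjustment over the 21 ratio tests), so no ratio could pass 0.05.

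**Figure D4:**
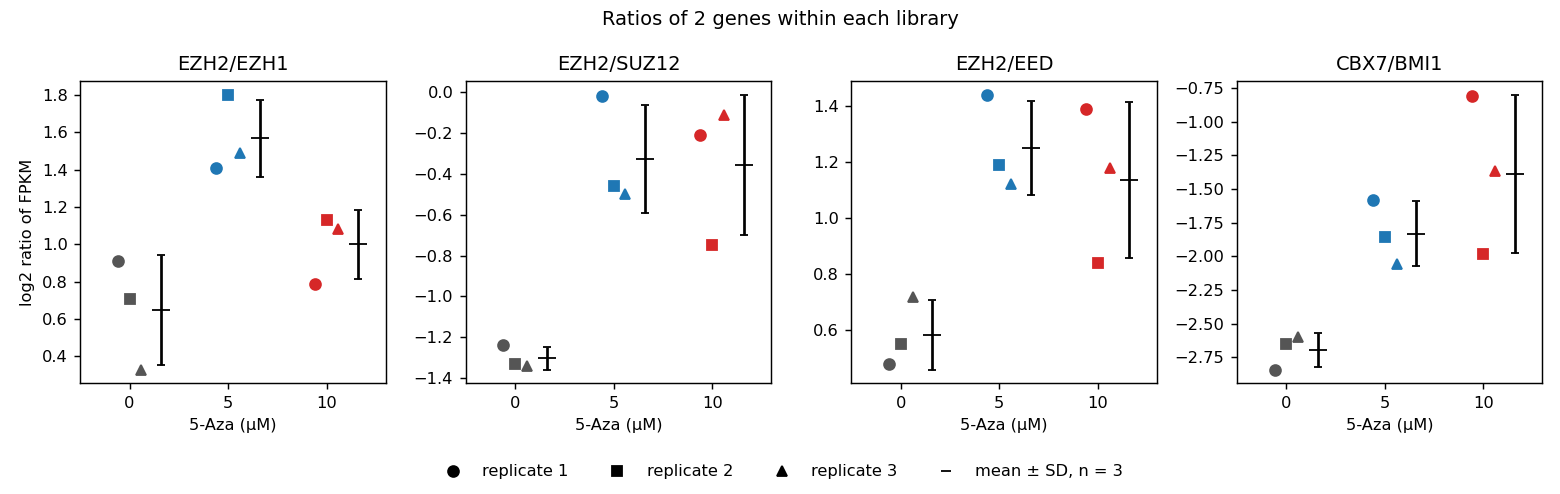
Log2 ratios of 2 genes within the same library (y axis) at 0, 5 and 10 µM 5-Aza (x axis), one panel per ratio, where points are libraries and bars with whiskers the mean ± SD of 3. EZH2/SUZ12 and CBX7/BMI1 lie higher in all treated libraries than in all control libraries, while EZH2/EZH1 is highest at 5 µM (mean 1.57) beside 1.00 at 10 µM and 0.65 at 0 µM.

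Of the PRC1 genes, BMI1 fell and CBX7 did not pass. BMI1 (chr10:22610028-22620413, plus strand) had 333559, 325357 and 323248 FPKM at 0 µM, 177201, 185367 and 211602 at 5 µM, and 88308, 182778 and 97452 at 10 µM. Its control libraries lay close together and above all 6 treated libraries, and 10 µM replicate 2 alone lay within the range of the 5 µM libraries. At 5 µM the mean was 0.585 of the control mean, a log2 difference of -0.78 (SE 0.08, 95% interval -0.97 to -0.58, limma adjusted p = 0.000883), and -0.74 after scaling. With libraries set to the same sum of FPKM the difference was -0.49 (limma adjusted p = 0.00645). BMI1 shares its locus with COMMD3-BMI1, a readthrough transcript of the neighbouring gene that is listed as its own entry, and fragments of the shared exons can be assigned to either. COMMD3-BMI1 alone had 83914 to 115554 FPKM at 0 µM, 67985 to 141672 at 5 µM and 82437 to 98167 at 10 µM, ranges that overlapped. The sum of both entries still fell, with a log2 difference of -0.56 at 5 µM (SE 0.12, limma adjusted p = 0.0106) and of -1.03 at 10 µM against 0 µM (SE 0.18, limma adjusted p = 0.0158).

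CBX7 (chr22:39516172-39548685), the chromodomain subunit that binds methylated H3 lysine 27, had 46566, 51984 and 53329 FPKM at 0 µM, 59088, 51240 and 50571 at 5 µM and 50239, 46472 and 37762 at 10 µM. Libraries at 0 and 5 µM overlapped (log2 difference 0.08, SE 0.11, limma adjusted p = 0.543). CBX7 was 0.14, 0.16 and 0.165 times BMI1 at 0 µM, 0.333, 0.276 and 0.239 times at 5 µM and 0.569, 0.254 and 0.387 times at 10 µM. The ratio lay higher in every treated library than in every control library, by 0.86 on the log2 scale at 5 µM and 1.31 at 10 µM, with the treated groups overlapping (exact permutation p = 0.3).

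Among the H3K9 genes, TRIM28, SETDB1 and EHMT2 fell at 5 µM and SUV39H1 did not pass. TRIM28 (chr19:59055431-59062089), the scaffold that links zinc finger repressors to SETDB1, had 2286810, 2305210 and 2027100 FPKM at 0 µM, 1416010, 1368920 and 1455410 at 5 µM, and 1337760, 2027020 and 1733900 at 10 µM. At 5 µM all libraries lay below the lowest control library, while the 10 µM libraries as deposited spread from below the 5 µM group to just under the control group. After scaling, the 10 µM libraries lay above the 5 µM group and overlapped the controls. TRIM28 was 0.641 of the control mean at 5 µM, a log2 difference of -0.64 (SE 0.08, limma adjusted p = 0.00168), which with libraries set to the same sum of FPKM was -0.35 (limma adjusted p = 0.00646). SETDB1 (chr1:150898739-150937220), the methyltransferase of that pair, had 163031, 170677 and 168960 FPKM at 0 µM, 125687, 116475 and 136222 at 5 µM and 139359, 141812 and 124480 at 10 µM. As deposited, all treated libraries lay below all controls, and both doses overlapped. After scaling, the 10 µM libraries of SETDB1 overlapped the controls and lay above the 5 µM libraries. At 5 µM SETDB1 was 0.753 of the control mean (log2 difference -0.41, SE 0.08, limma adjusted p = 0.00748). The ratio of TRIM28 to SETDB1 was 14, 13.5 and 12 at 0 µM, 11.3, 11.8 and 10.7 at 5 µM and 9.6, 14.3 and 13.9 at 10 µM, so the 5 µM libraries lay below the controls, with a difference of log2 ratios of -0.23, and the 10 µM libraries spread across both groups.

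EHMT2 (chr6:31847536-31865475), which mono- and dimethylates H3K9, had 175461, 176660 and 175053 FPKM at 0 µM, 150462, 144221 and 144149 at 5 µM and 149877, 186808 and 178914 at 10 µM. Those at 5 µM lay below the controls, and those at 10 µM as deposited ran from the 5 µM level to above the controls. After scaling, the 10 µM libraries of EHMT2 lay above both other groups. The fall at 5 µM was the smallest of those that passed, to 0.832 of the control mean (log2 difference -0.26, SE 0.06, limma adjusted p = 0.0122). Scaling the libraries to the same FPKM sum ended the calls of SETDB1 (-0.13, limma adjusted p = 0.369) and EHMT2 (0.02), and a fit with the replicate number as a block ended that of EHMT2 (limma adjusted p = 0.0615). SUV39H1 (chrX:48553945-48567407), the enzyme of pericentric heterochromatin, had 27878, 26491 and 17881 FPKM at 0 µM, 19651, 23332 and 21078 at 5 µM and 13829, 26554 and 18876 at 10 µM. All 3 groups overlapped. Its difference at 5 µM of -0.15 had a 95% interval of -0.64 to 0.34, which holds the differences of SETDB1 and EHMT2 and not those of BMI1 and EZH2. The ratios of SUV39H1 to SETDB1 and of EHMT2 to SUV39H1 overlapped in all 3 comparisons.

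The comparison of 10 µM with 5 µM asks whether the higher dose moved these genes further. It uses the same 5 µM libraries as the comparison above. None of the 10 genes passed in limma, where 0.319% of 20085 genes rose, 5.85% fell and 4.95% also exceeded 2-fold. At an unadjusted p under 0.05, 0 rose and 1 fell as deposited, and 4 rose and 1 fell after scaling. The share of all genes at the unadjusted threshold was not counted, here or for the lists below. These counts therefore cannot be set against the rate over all genes. Groups did not overlap for 1 gene that was higher (EZH1) and 2 that were lower (EZH2, CBX7), where 29.6% of all genes did not overlap. After scaling the 3 genes without overlap were all higher at 10 µM, SETDB1, TRIM28 and EHMT2, beside 30.9% of all genes in either direction. The median difference of the 10 genes was -0.16 as deposited and 0.05 after scaling, so the direction of the group as a whole depended on the scale.

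BMI1 had the largest log2 difference of the 10 genes between the doses, -0.71 (SE 0.27, 95% interval -1.36 to -0.07, limma adjusted p = 0.17), and -0.51 after scaling (limma adjusted p = 0.161). Without 10 µM replicate 2 the BMI1 difference as deposited was -1.04 (limma adjusted p = 0.00722). The 10 µM libraries kept in that fit had log2 scale factors of -0.26 and -0.22, and it was not run after scaling. In the same fit 0 of the 59 other genes of both pathways, described below, rose and 10 fell. The share of all genes that fell in it was not counted. EZH2 differed by -0.26 between 10 µM and 5 µM as deposited (SE 0.12, limma adjusted p = 0.216) and by -0.06 after scaling (limma adjusted p = 0.786). TRIM28 and EHMT2 were higher by 0.25 (SE 0.20, limma adjusted p = 0.475) and 0.23 (SE 0.13, limma adjusted p = 0.306) as deposited and by 0.45 (limma adjusted p = 0.0946) and 0.43 (limma adjusted p = 0.0606) after scaling. EZH1 was higher by 0.30 (SE 0.15, limma adjusted p = 0.25) as deposited and by 0.51 after scaling (limma adjusted p = 0.165).

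The comparison of 10 µM with 0 µM uses the same controls as the first comparison and the same 10 µM libraries as the second. EZH2 rose and BMI1 fell, the other 8 genes did not pass, and BMI1 was the 1 gene past 2-fold. Among the 18928 genes tested, 5.39% rose, 9.71% fell and 7.48% passed with more than a 2-fold difference. Groups did not overlap for 1 higher and 4 lower genes as deposited and for 2 higher and 2 lower genes after scaling, where 41.1% and 42.3% of all genes did not overlap. BMI1 reached 0.375 of the control mean, a log2 difference of -1.49 (SE 0.26, 95% interval -2.11 to -0.87, limma adjusted p = 0.0161), and -1.25 after scaling (limma adjusted p = 0.00673). Its call was lost without the low-value filter (limma adjusted p = 0.0688), and in 4 of the 6 fits that left out 1 library.

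EZH2 at 10 µM was 1.35-fold of the control mean, a log2 difference of 0.43 (SE 0.12, limma adjusted p = 0.0484), 0.68 after scaling (limma adjusted p = 0.0107) and 0.81 with libraries set to the same sum of FPKM (limma adjusted p = 0.00802). As deposited this call stood just under the threshold, and it was lost with the replicate block (limma adjusted p = 0.0907) and in 5 of the 6 fits that left out 1 library. SUZ12 had a difference of -0.51 (SE 0.18, limma adjusted p = 0.0939), which was -0.27 after scaling (limma adjusted p = 0.114), and SETDB1 one of -0.31 (SE 0.11, limma adjusted p = 0.101). Without 10 µM replicate 2 both passed, SUZ12 with -0.71 (limma adjusted p = 0.00623) and SETDB1 with -0.35 (limma adjusted p = 0.0404), and 3 of the 10 genes fell in place of 1. In that fit 23 of the 59 other genes of both pathways, described below, also fell. The 10 µM libraries it kept had log2 scale factors of -0.26 and -0.22, and it was not run after scaling. The share of all genes that fell in it was not counted. After scaling, SETDB1 stood at -0.07 and TRIM28 at -0.15, against -0.31 and -0.39 as deposited. EHMT2 stood at -0.04 as deposited and 0.20 after scaling.

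The other genes of both pathways were counted from fixed lists, 69 genes with the 10 described above among them, of which 59 were not members. At 5 µM against 0 µM, 14 of the 59 rose and 10 fell, or 23.7% and 16.9%, close to the shares of 21.3% and 17.7% over all genes tested, with a median log2 difference of -0.05. In a fit of all 9 libraries 9 rose and 4 fell. The split of the lists depended on the scale: with libraries set to the same sum of FPKM, 6 rose and 1 fell in PRC2, 9 and 2 in PRC1, 2 and 2 among the H3K9 writers and partners, 2 and 0 among the readers with their partners and 6 and 0 among the erasers, against the deposited counts that follow. In PRC2, 5 of 13 rose and 1 fell: C17orf96 (EPOP), an accessory subunit, rose by 0.86 (SE 0.13, limma adjusted p = 0.00335), the histone binding subunits RBBP4 and RBBP7 by 0.32 and 0.36, and PHF1 by 0.66, while PHF19, another Polycomb-like subunit, fell by 0.76 on the log2 scale (SE 0.11, limma adjusted p = 0.00237). In PRC1, 7 of 24 rose and 5 fell, with SCML2, a Polycomb protein of the sex comb on midleg group, up by 1.53 (SE 0.30, limma adjusted p = 0.00845) and PHC2, a polyhomeotic subunit, down, at -0.98 (SE 0.10, limma adjusted p = 0.000765).

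CBX proteins are alternative subunits of canonical PRC1, and they moved in both directions at 5 µM. CBX2 rose by 0.79 (SE 0.21, limma adjusted p = 0.0274) and CBX8 by 0.74 (SE 0.11, limma adjusted p = 0.00343), and CBX6 fell, with a difference of -0.47 (SE 0.08, limma adjusted p = 0.00625). The ligase subunits RING1 and RNF2 did not pass at 5 µM (-0.16 and -0.29), and RNF2 fell at 10 µM against 0 µM (-0.83, SE 0.21, limma adjusted p = 0.0413, and -0.59 after scaling, limma adjusted p = 0.03).

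Of the 10 H3K9 writers and partners, 0 rose (0 also at an unadjusted p under 0.05 in limma) and 4 fell at 5 µM, namely TRIM28, SETDB1, EHMT2 and WIZ, a zinc finger partner of the EHMT1 and EHMT2 pair that had a difference of -0.57 (SE 0.09, limma adjusted p = 0.00423). The paralogs of the writers did not pass, with EHMT1 at -0.10, SUV39H2 at 0.40 (limma adjusted p = 0.114) and SETDB2 at -0.05. The list of readers holds 8 genes and includes partners of readers. In it MPHOSPH8, a chromodomain subunit of the HUSH complex, rose by 0.27 (SE 0.07, limma adjusted p = 0.0275). In the same list 3 fell, led by CDYL, a chromodomain corepressor, at -0.54 (SE 0.10, limma adjusted p = 0.00812), with CBX5, which encodes heterochromatin protein HP1α, at -0.51. No gene of this list rose with the replicate block, without the trend, in the fit of all 9 libraries, where none fell either, or in 4 of the 6 fits that left out 1 library. Of 14 erasers 2 rose, with KDM6B, a demethylase of H3 lysine 27, up by 0.84 (SE 0.13, limma adjusted p = 0.00377), and 1 fell, KDM4A, a demethylase of H3K9 and H3 lysine 36, at -0.47 (SE 0.08, limma adjusted p = 0.00603).

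**Figure D5:**
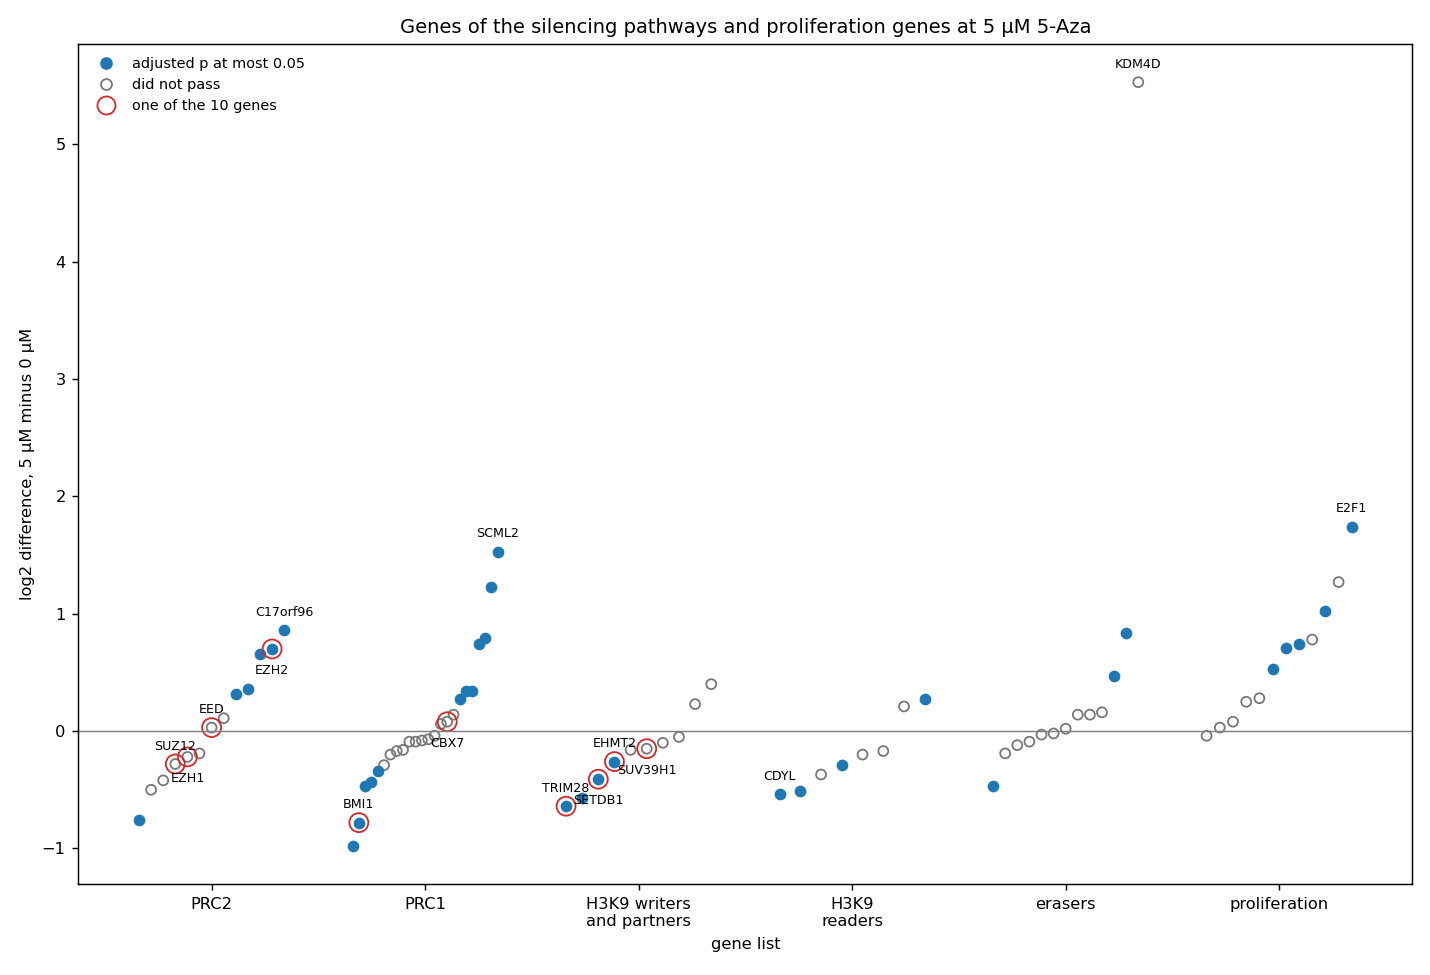
Log2 difference of 5 µM minus 0 µM (y axis) for each gene of 5 pathway lists and the proliferation list (x axis), filled where the limma adjusted p was at most 0.05 and ringed in red for the 10 genes. Values within a list are in ascending order, and KDM4D, far above the rest at 5.53, did not pass (limma adjusted p = 0.156) and was between 0 and 906 FPKM in the controls.

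None of the 59 other genes passed in limma between 5 and 10 µM (unadjusted p under 0.05: 0 rose and 10 fell; without 10 µM replicate 2, 0 rose and 10 fell at the adjusted threshold). At 10 µM against 0 µM, 1 of them rose and 5 fell as deposited, or 1.69% and 8.47% beside 5.39% and 9.71% of all genes tested. After scaling 6 rose and 5 fell, or 10.2% and 8.47% beside 10.2% and 9.67% of all genes, and without 10 µM replicate 2, 2 rose and 23 fell. CBX8 was the gene that rose, by 0.61 (SE 0.14, limma adjusted p = 0.0325, and 0.85 after scaling). Those that fell were PHC2 at -1.27 (-1.03 after scaling), RNF2, CDYL at -1.04 (SE 0.20, limma adjusted p = 0.0194, and -0.80 after scaling), KDM4A at -0.70 (SE 0.15, limma adjusted p = 0.0248, and -0.46 after scaling) and JARID2, a PRC2 cofactor. JARID2 stood at -0.60 (SE 0.15, limma adjusted p = 0.0378) and did not pass after scaling (-0.36, limma adjusted p = 0.0752), so the genes that fell on the 2 scales were not all the same.

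EZH2 is a gene of dividing cells and a known E2F target, and 12 proliferation genes are given beside it. At 5 µM 5 of the 12 rose and 0 fell (0 also at an unadjusted p under 0.05 in limma), beside 21.3% and 17.7% of all genes tested. E2F1, a transcription factor of the entry into S phase, was up by 1.74 (SE 0.17, limma adjusted p = 0.000685) and PCNA, the replication clamp, by 0.53 (SE 0.13, limma adjusted p = 0.0224), while MKI67, a marker of cycling cells, was at -0.04 (limma adjusted p = 0.902). The number that rose at 5 µM ran from 3 to 9 over the alternative fits, with 8 after scaling and 3 without 5 µM replicate 2 or 3, and none fell in any of these fits. At 10 µM against 5 µM 1 rose and 7 fell, beside 0.319% and 5.85% of all genes tested. CCNA2 fell the furthest, at -1.61 (SE 0.24, limma adjusted p = 0.0114, and -1.41 after scaling). After scaling 3 rose and 6 fell, beside 1.68% and 5.88% of all genes. As deposited, without 5 µM replicate 1, 2 or 3 the number that fell was 2, 1 and 0. At 10 µM against 0 µM 4 rose and 5 fell, beside 5.39% and 9.71% of all genes tested. E2F1 was up by 2.08 (SE 0.20, limma adjusted p = 0.00327, and 2.32 after scaling) and MKI67 down, at -1.47 (SE 0.28, limma adjusted p = 0.0207, and -1.23 after scaling). The number that fell was 0 in 4 of the 6 fits that left out 1 library. MCM2 (1.18, and 1.42 after scaling) and MCM5 (1.40, and 1.65 after scaling) also rose at 10 µM against 0 µM. Like E2F1, both had risen at 5 µM, by 1.02 and 0.71. CCNB1 (-1.49), CCNA2 (-1.36) and AURKA (-1.14) also fell at 10 µM against 0 µM, with -1.24, -1.12 and -0.90 after scaling. EZH2 stayed above its control range at this dose. The part of proliferation in the EZH2 values was not tested.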

How the data were processed

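Libraries were RNA-Seq of HT-29, read as 100-nt paired ends, and whether strand was kept is not given in the sources used here. The authors removed low-quality bases (FASTX-Toolkit), mapped reads to hg19 (GRCh37) using TopHat and derived one FPKM per gene with Cufflinks, and these deposited FPKM values were the only input. Their methods scale FPKM to the mapped fragments of a library, but the deposited values lie far above that scale for a reason not given in the sources used here, and the count test planned for raw counts was replaced by the planned test for normalized values.

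Entries of one symbol were summed (24934 entries, 23284 symbols). EHMT2 stood on 7 entries, 6 of them at 0 in every library. Values were taken as log2(FPKM + 1), and genes entered a test if any library of either group had at least 10 FPKM. Each comparison used its 6 libraries in limma 3.58.1 (R 4.3.3; lmFit, eBayes with trend) without a block, with Benjamini-Hochberg adjustment over all genes tested, and a gene passed at an adjusted p of at most 0.05. Ratios within a library were compared by 2-sided exact permutation tests. Median-of-ratios scaling used the 15278 genes above 0 in all libraries. Replicates of a group shared no identical values above 0 (0 found).

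Fragments were estimated from 12 microRNA genes of 110 nt, whose 46 values above 0 were all whole multiples of one step per library (tolerance 0.01 of a step), and from the transcript length less 200 nt. This relation held within 15% for 323 of 463 other genes, so the fragment numbers are approximate.

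All 10 members were named, with the paralogs of the writers, ligases and CBX proteins, MKI67, E2F1 and PCNA, and in each list and comparison the genes with the largest passing rise and fall. One gene under this rule is not reported here. RBBP4, RBBP7, PHF1, WIZ, CBX5, KDM4D, MCM2, MCM5, CCNB1 and AURKA were named after their values were seen. The members and lists were chosen with earlier results of these data known. Scripts were tested on simulated data. Alternatives covered the pseudocount, filter, scaling, trend, samples fitted, replicate block, fold threshold and each library left out. Tables were made with pandas 2.3.3 and numpy 2.4.6.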

Additional observations from a re-analysis of the deposited data

How the results depend on the processing

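Replicate numbers did not mark pairs: deviations of same-numbered libraries correlated at -0.31 to 0.22 over 9 pairs, and those of different numbers at -0.28 to 0.21 over 18. With the replicate block, 0 genes rose at 10 µM against 0 µM in place of 1, and EHMT2 at 5 µM no longer passed (limma adjusted p = 0.0615). Adding the 2-fold threshold left 0 rising and 0 falling at 5 µM, and 0 rising at 10 µM against 0 µM. Scaling to the same sum of FPKM left 2 falling at 5 µM. At 10 µM against 0 µM, 0 rose with a pseudocount of 1000 and 0 rose and 0 fell without the trend, 0 fell without the filter, and 2 fell in a fit of all 9 libraries, with SETDB1 added (limma adjusted p = 0.0458). With each library left out in turn, 3 to 4 fell at 5 µM, 0 to 1 fell between 5 and 10 µM, and at 10 µM against 0 µM 0 to 1 rose and 0 to 3 fell, the highest of these without 10 µM replicate 2. BMI1 then ranged from -1.29 to -1.82 at 10 µM against 0 µM.

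Signs turned only for genes that did not pass, except EHMT2 at 5 µM. Scaling to the same sum turned EZH1 (0.07), SUZ12 (0.01), SUV39H1 (0.14) and EHMT2 (0.02) at 5 µM, and EED (0.26), CBX7 (0.20), SETDB1 (0.07), SUV39H1 (0.07) and EHMT2 (0.34) at 10 µM against 0 µM. Median-of-ratios scaling turned EED (0.05) and SUV39H1 (0.04) between the doses and EED (0.12), CBX7 (0.06) and EHMT2 (0.20) at 10 µM against 0 µM. With each library left out in turn, EED at 5 µM ranged from -0.10 to 0.14 (negative without 0 µM replicate 3 or 5 µM replicate 2), SUV39H1 between the doses from -0.40 to 0.07, and at 10 µM against 0 µM EZH1 from -0.02 to 0.17, EED from -0.27 to 0.01 and EHMT2 from -0.10 to 0.06, each of these 4 with its sign turned without 10 µM replicate 1. The causes were not tested. SUV39H1 rested on the fewest estimated fragments, 58 to 178 per library.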
